A study of Mus musculus with 19 samples.

Results

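The difference between TG livers on a high-fat and a normal diet was described from 7 of the 19 arrays of the series. They were chosen by their titles: 4 livers of TG mice on a high-fat diet (TG HFD) and 3 livers of TG mice on a normal diet (TG ND). TG stands for mice that carry a transgene for Kcp, the kielin/chordin-like protein. The labels give only the code TG, and the promoter of the transgene and the founder line are not given in the sources used here. The other 12 arrays came from WT HFD, WT ND, KO HFD and KO ND livers, with 3 in each group. All mice were 2 to 3 months old, had been on their diet for 4 weeks, and gave RNA from whole liver. Each array was taken as a separate animal because each title has its own animal number, and p-values measure only the spread between these arrays. Sex, strain, batch and time of harvest are not given in the sources used here. In the titles all ND arrays have lower running numbers than all HFD arrays, and ND and HFD animal numbers come from separate ranges. Diet therefore cannot be told apart from array order or animal series in any difference below. In all 7 TG livers the Y-linked gene Uty lay between 5.55 and 6.05, and the X-inactivation transcript Xist lay between 0.39 and 0.93.

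The values were log2 array values of 22180 genes with a single symbol. A gene is said to have risen or fallen where its adjusted p was under 0.05, and differences are TG HFD minus TG ND on the log2 scale with their standard error (SE). Each SE draws on the spread within all 6 groups and not on the TG arrays alone. For a gene with widely spread TG livers it can understate their spread. Adjusted p-values are two-sided, from limma with Benjamini-Hochberg adjustment over all 22180 genes. Array medians lay between 0.983 and 1.075. The 10 measured hepatocyte markers lay between 8.74 and 12.51 in the TG livers. Of the 7 TG arrays, TG HFD replicate 2 correlated least with its group mates (mean r 0.9711). The TG HFD arrays correlated no better with each other (0.9711 to 0.9736) than with the TG ND arrays (0.9711 to 0.9749), while the TG ND arrays did (0.9787 to 0.979, against 0.9724 to 0.9749 with TG HFD).

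Kcp encodes a secreted protein that enhances BMP signalling and dampens TGF-beta signalling. Its level checks the genotype label. Kcp was 5.60, 5.81, 5.52 and 5.73 in TG HFD livers, against 5.72, 5.35 and 5.60 in TG ND livers. All 7 TG values lay far above the WT HFD and WT ND means, 2.23 ± 0.40 and 2.55 ± 0.23 (SD, n = 3 each), and the 2 TG diets overlapped. The difference between TG diets was 0.11 ± 0.18 (SE, adjusted p = 0.907).

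The liver clock is a feedback loop of transcription factors. Arntl (BMAL1) and its partners Clock and Npas2 bind E-box sequences and switch on the Per, Cry and Nr1d genes, whose products then shut the loop down. The output factors Dbp, Tef and Hlf bind D-box sequences, and Nfil3 opposes them there. Through these factors the clock and the feeding rhythm time much of hepatic metabolism, including lipid synthesis, glycogen turnover, bile acid synthesis and detoxification.

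Promoter sequences are shown for 4 genes that rose, which were picked because they hold the letters to which these factors bind. They are from RefSeq, build GRCm38.p6, run 5′ to 3′ on the strand of the gene, and hold only bases upstream of the annotated gene. Capitals mark the E-box CACGTG or the D-box TTATGTAA, read on either strand. The Ciart stretch is chr3:95882258-95882478 on the minus strand. The Per3 stretch is chr4:151044708-151044915 on the minus strand. The Tef stretch is chr15:81802423-81802672 on the plus strand. The Coq10b stretch is chr1:55052520-55052769 on the plus strand.
Ciart: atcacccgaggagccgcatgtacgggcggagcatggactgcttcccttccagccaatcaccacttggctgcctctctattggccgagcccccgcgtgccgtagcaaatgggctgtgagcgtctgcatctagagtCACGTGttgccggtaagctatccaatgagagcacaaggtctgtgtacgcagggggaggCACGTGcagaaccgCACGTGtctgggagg
Per3: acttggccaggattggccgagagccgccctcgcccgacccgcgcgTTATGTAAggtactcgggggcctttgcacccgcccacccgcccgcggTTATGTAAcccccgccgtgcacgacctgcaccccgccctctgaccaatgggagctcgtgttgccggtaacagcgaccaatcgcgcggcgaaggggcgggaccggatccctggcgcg
Tef: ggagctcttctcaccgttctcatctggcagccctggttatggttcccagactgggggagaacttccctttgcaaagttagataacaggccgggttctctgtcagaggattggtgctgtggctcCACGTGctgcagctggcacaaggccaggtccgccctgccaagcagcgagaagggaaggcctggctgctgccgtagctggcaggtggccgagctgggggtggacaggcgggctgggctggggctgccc
Coq10b: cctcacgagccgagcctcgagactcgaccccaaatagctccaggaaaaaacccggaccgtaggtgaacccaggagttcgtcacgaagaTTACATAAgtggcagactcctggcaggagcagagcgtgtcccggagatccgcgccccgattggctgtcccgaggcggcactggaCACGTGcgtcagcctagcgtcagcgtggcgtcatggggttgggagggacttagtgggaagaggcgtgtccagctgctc

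Ciart held 3 E-boxes, which began 116, 58 and 44 bases before the start of transcription. Per3 held 2 D-boxes, 205 and 158 bases before it. Tef held 1 E-box, 127 bases before it, and Coq10b held 1 E-box at 78 bases and 1 D-box at 162 bases, the D-box read on the opposite strand. Distances are counted to the start of transcription of the promoter window. The printed Ciart and Per3 stretches, 221 and 208 bases long, stop before that start, where the annotated gene begins. Windows from 250 bases before to 50 after the start of transcription were found for 73 of the 88 genes that rose and 90 of the 113 that fell. Only the 250 bases before the start were searched for motifs. The E-box stood in 17 of the 73 (23.3%), in 7 of the 90 (7.78%) and in 1330 of 16990 measured genes (7.83%). The D-box stood in 3 of the 73 (4.11%), in none of the 90 and in 0.924% of the measured genes. Among the clock genes that rose, only Ciart, Per1 and Tef held an E-box and only Per3 a D-box in the bases searched. The nuclear receptor half-site AGGTCA stood in 23.3% of the genes that rose, 24.4% of those that fell and 14.4% of the measured genes. AGGTCA can share end letters with either of the other motifs, and a match is a description of the sequence only.

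The diet comparison in TG livers asked which genes differ between the diets when Kcp is raised. Clock genes led the rises, enzymes of xenobiotic metabolism were frequent among the falls, and the genes of fat storage did not pass. In all, 201 genes (0.906% of those tested) changed, of which 88 (0.397%) rose and 113 (0.509%) fell. The sizes of their differences ran from 0.42 to 3.54 with a median of 0.92, while the median over all genes was 0.0028. In 198 of the 201 the arrays of both diets did not overlap, against 2105 genes (9.49%) among all tested, 4.24% with TG HFD higher and 5.25% with it lower. Of the 201 calls, 60 passed without each of the 7 TG arrays in turn, 25 of them higher and 35 lower. Fitted with the 7 TG arrays alone, 49 of the 201 calls passed. Without TG ND replicate 1, 29 genes rose and 44 fell, and without TG ND replicate 2 the counts were 39 and 57. In whole liver, fewer cells of a type and less RNA per cell cannot be told apart.

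The clock list had 19 measured members, of which 11 rose, 4 fell and 4 did not pass. Its median difference was 0.72. The genes that rose are mostly repressors and output factors of the loop, and those that fell are its activators Arntl, Clock and Npas2 with Nfil3. Ciart, a repressor of the Clock and Arntl pair, was 5.91, 5.24, 5.18 and 4.29 in TG HFD livers, against 1.68, 2.02 and 2.32 in TG ND livers. The groups stood well apart, by 3.15 ± 0.32 (SE, 8.86-fold, adjusted p = 3.04e-05). Wee1, a kinase that holds back entry into mitosis, was 5.03, 4.20, 5.38 and 5.66 in TG HFD livers, against 2.28, 1.91 and 1.73 in TG ND livers, with a difference of 3.09 ± 0.32 (SE, adjusted p = 3.04e-05). Usp2, a deubiquitinase, was 7.28, 6.49, 6.46 and 6.52 in TG HFD livers, against 3.33, 3.42 and 4.13 in TG ND livers. Its difference was 3.06 ± 0.25 (SE, adjusted p = 2.04e-06), and replicate 1 was the highest of the TG HFD livers.

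The D-box factor Dbp was 7.95, 7.64, 8.23 and 8.06 in TG HFD livers, against 4.85, 5.11 and 5.44 in TG ND livers. Its difference was 2.84 ± 0.24 (SE, 7.16-fold, adjusted p = 3.04e-06). Its relatives rose less, Tef by 1.02 ± 0.16 and Hlf by 0.72 ± 0.14 (SE, adjusted p = 0.00268 and 0.0212). Among the Period genes, which encode the repressors of the loop, Per3 was 4.86, 5.07, 5.60 and 5.15 in TG HFD livers, against 2.58, 2.83 and 2.71 in TG ND livers, a difference of 2.47 ± 0.21 (SE, adjusted p = 3.17e-06). Per1 was 6.20, 6.14, 5.84 and 5.94 in TG HFD livers, against 2.95, 4.02 and 5.38 in TG ND livers. The TG ND livers were widely spread for Per1, and its difference was 1.91 ± 0.36 (SE, adjusted p = 0.0128). The repressors Bhlhe40, Cry2 and Nr1d2 rose by 1.38 ± 0.16, 0.76 ± 0.15 and 0.69 ± 0.16 (SE).

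Arntl, the activator, was 3.73, 3.48, 3.61 and 3.34 in TG HFD livers, against 6.43, 5.78 and 5.89 in TG ND livers. It fell by 2.49 on the log2 scale (SE 0.27, adjusted p = 7.14e-05), and every TG HFD liver was below every TG ND liver. Npas2, a partner of Arntl, was 1.34, 0.65, 0.35 and 0.87 in TG HFD livers, against 3.67, 3.08 and 3.68 in TG ND livers, a difference of -2.67 ± 0.48 (SE, adjusted p = 0.00926). Clock fell by 1.00 on the log2 scale (SE 0.12, adjusted p = 0.000179) and Nfil3 by 1.08 (SE 0.24, adjusted p = 0.035). The 4 members that did not pass were Cry1 (0.12), Rora (0.18), Bhlhe41 (0.19) and Nr1d1 (-1.44, adjusted p = 0.0876). Nr1d1, the REV-ERB alpha repressor of Arntl, was 4.48, 4.48, 6.22 and 5.87 in TG HFD livers, against 6.74, 6.93 and 6.43 in TG ND livers.

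Without 1 of the 7 TG arrays, between 7 and 11 members of the clock list rose and between 2 and 4 fell. The call of Npas2 was lost without TG ND replicate 1 and that of Per1 without TG ND replicate 1 or 2. Cry2 was lost without TG HFD replicate 1 or TG ND replicate 1 or 2, and Hlf without TG HFD replicate 3 or TG ND replicate 2 or 3. Nr1d2 and Nfil3 were each lost without TG HFD replicate 1, 3 or 4 or TG ND replicate 1 or 2.

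**Figure D1:**
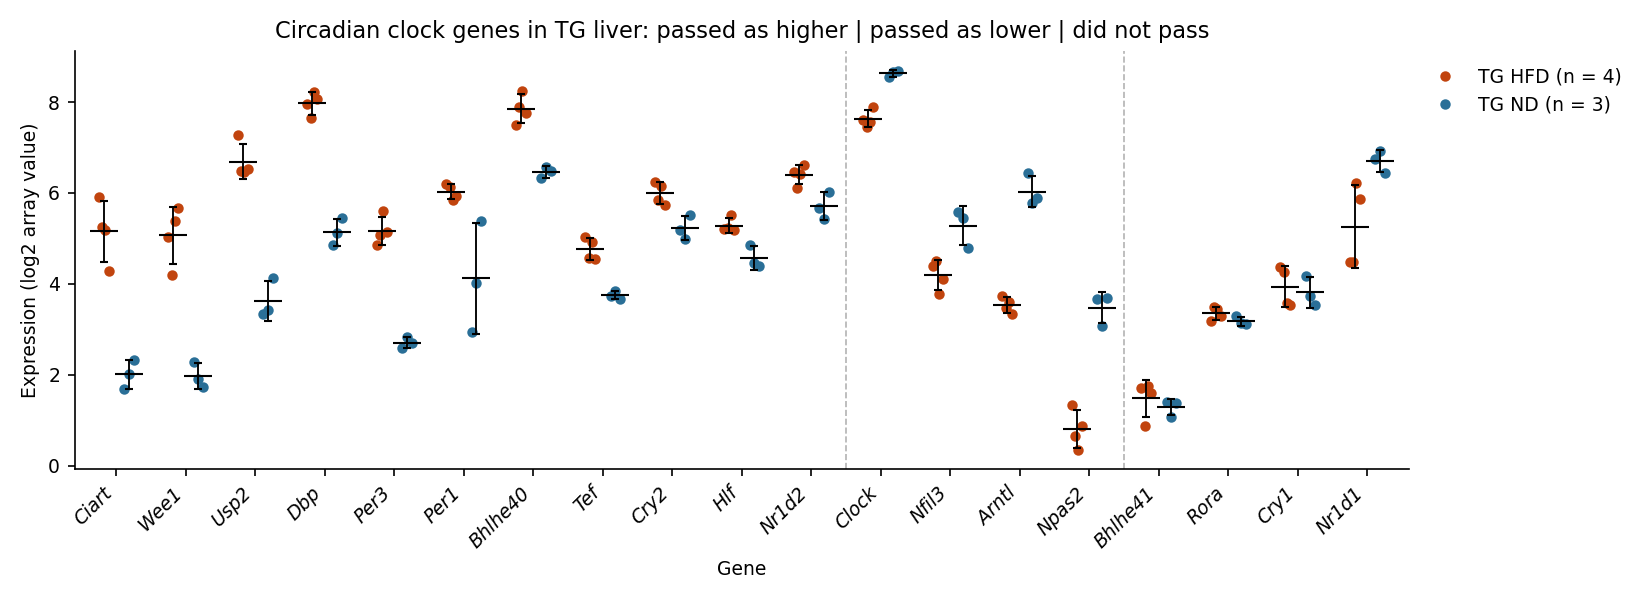
Log2 array values (vertical axis) of the 19 measured clock genes (horizontal axis) in 4 TG HFD livers (orange) and 3 TG ND livers (blue), with each point 1 liver and bars for the mean and SD. Dashed lines part the 11 genes that rose, the 4 that fell and the 4 that did not pass.

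A clock score was taken per liver as the mean log2 value of 10 evening-peaking clock genes less that of 5 morning-peaking ones. It was 1.73, 1.58, 2.19 and 1.83 in TG HFD livers, against -1.97, -1.54 and -1.18 in TG ND livers. Diet and score thus did not overlap in TG livers. The score is made of clock genes of these same livers, and their phases were chosen with earlier results of these data known. Its gap between the TG diets restates the differences of those genes and is not a further test. The means were 1.83 ± 0.26 in TG HFD (SD, n = 4) and -1.56 ± 0.39 in TG ND (SD, n = 3), 1.88 ± 0.12 in WT HFD and -0.95 ± 0.93 in WT ND, and 2.09 ± 0.18 in KO HFD and 1.74 ± 0.21 in KO ND (SD, n = 3 each). The KO ND livers thus had scores like those of the livers on a high-fat diet. With the score as a covariate, limma called 0 genes in the TG diet comparison, 966 had an unadjusted p under 0.05, and the standard errors were 3.08 times as large (median over genes). In that fit 187 of the 201 genes kept their sign. The labels give no time of harvest, and the part of clock phase in the differences described below was not tested.

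**Figure D2:**
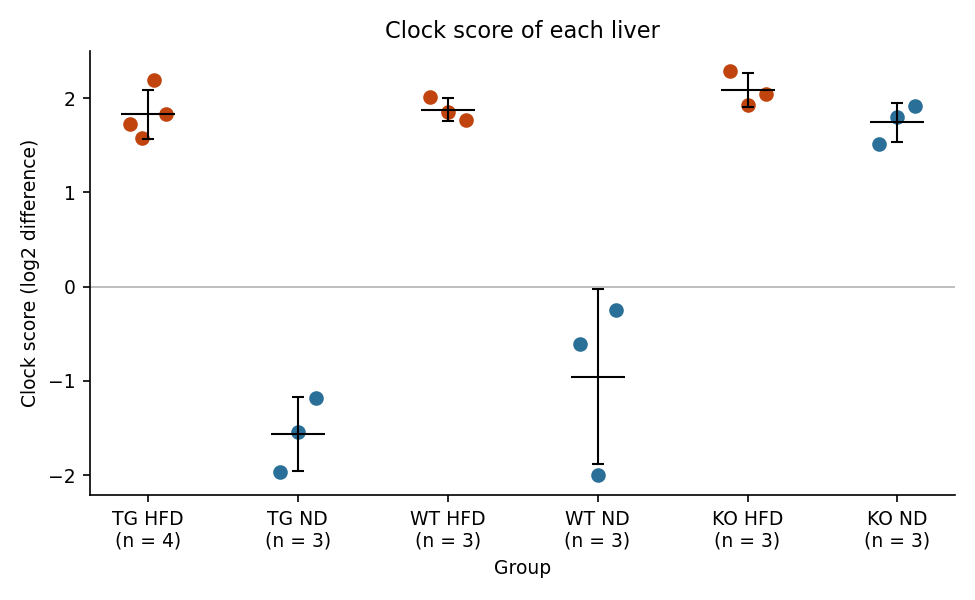
Clock score (vertical axis, log2 difference between evening and morning genes) of each liver in the 6 groups (horizontal axis), orange for HFD and blue for ND, with bars for the mean and SD. The 4 TG HFD livers lie between 1.58 and 2.19 and the 3 TG ND livers between -1.97 and -1.18, while KO ND lies with the HFD groups.

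Outside the clock list, the largest rises included Mfsd2a, Thrsp and Apoa4. Mfsd2a, a transporter of lysophosphatidylcholine, was 8.99, 7.44, 8.48 and 7.90 in TG HFD livers, against 4.81, 4.59 and 6.62 in TG ND livers. It rose by 2.86 ± 0.41 (SE, adjusted p = 0.00131), with TG ND replicate 3 above the other TG ND livers. Thrsp (Spot 14), a nuclear protein tied to lipogenesis, was 10.43, 9.98, 10.36 and 9.36 in TG HFD livers, against 7.69, 7.68 and 7.95 in TG ND livers. The difference was 2.26 ± 0.28 (SE, adjusted p = 0.000328). Apoa4, an apolipoprotein of triglyceride-rich particles, was 9.30, 10.36, 10.11 and 9.95 in TG HFD livers, against 7.93, 8.10 and 7.90 in TG ND livers, a rise of 1.95 ± 0.27 (SE, adjusted p = 0.00078). It was the 1 of 20 apolipoprotein and lipoprotein assembly genes that rose, and the list had a median of 0.08.

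Nrg4, a growth factor of the neuregulin family that signals through ErbB receptors, was 3.92, 5.13, 3.96 and 3.41 in TG HFD livers, against 2.15, 2.08 and 2.13 in TG ND livers (1.98 ± 0.27, SE, adjusted p = 0.000863). Coq10b, a coenzyme Q-binding protein of mitochondria, was 6.88, 6.95, 6.41 and 6.33 in TG HFD livers, against 4.46, 4.74 and 5.05 in TG ND livers. It had the smallest standard error of the genes in this paragraph and rose by 1.89 ± 0.17 (SE, adjusted p = 8.22e-06). Nampt, which makes the NAD precursor nicotinamide mononucleotide and is a known clock target, rose by 1.45 ± 0.18 (SE, adjusted p = 0.000192). Ppargc1b, a coactivator of nuclear receptors, was 4.32, 4.27, 4.20 and 4.30 in TG HFD livers, against 3.10, 2.92 and 3.29 in TG ND livers, a rise of 1.17 ± 0.18 (SE, adjusted p = 0.00277).

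Some of the large rises lost their call when 1 liver was left out. Rgs16, a brake on G-protein signalling, was 8.11, 7.93, 7.68 and 7.87 in TG HFD livers, against 3.88, 4.54 and 6.91 in TG ND livers (2.79 ± 0.64, SE, adjusted p = 0.0465). TG ND replicate 3 was well above the other TG ND livers, and the call held only without that liver, among the 7 left out in turn (highest adjusted p 0.277). Dio1, the deiodinase that activates thyroid hormone, was 8.24, 7.79, 8.06 and 8.37 in TG HFD livers, against 5.60, 7.73 and 5.73 in TG ND livers (1.76 ± 0.38, SE, adjusted p = 0.0322). Its call was lost without TG HFD replicate 1, 3 or 4 or TG ND replicate 1 or 3. Osbpl3, an oxysterol-binding protein, rose by 1.87 ± 0.36 (SE, adjusted p = 0.0139), and its call was lost without TG ND replicate 2 or 3.

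The list of gluconeogenesis and glycogen genes had 3 rises and no fall among 17 measured members, with 14 differences above 0 and a median of 0.30. Gys2, the liver glycogen synthase, was 9.33, 9.28, 9.34 and 9.67 in TG HFD livers, against 8.38, 8.41 and 8.42 in TG ND livers. It rose by 1.00 ± 0.11 (SE, 2.01-fold, adjusted p = 6.89e-05) and kept its call without each TG array in turn. Slc37a4, the glucose 6-phosphate transporter, was 8.43, 8.12, 8.13 and 7.89 in TG HFD livers, against 7.02, 6.95 and 7.64 in TG ND livers (0.94 ± 0.17, SE, adjusted p = 0.0102). Foxo1, the insulin-regulated activator of gluconeogenic genes, differed by 0.67 ± 0.15 (SE, adjusted p = 0.0382), with overlapping arrays. Without TG ND replicate 1 or 2 only 1 member of the list rose, as Slc37a4 and Foxo1 lost their calls. Foxo1 was also lost without TG HFD replicate 1, 2 or 4. Pck1, the gluconeogenic carboxykinase, differed by 0.35 (adjusted p = 0.473) and G6pc, the last enzyme of the pathway, by -0.29 (adjusted p = 0.832). In the list of glycolysis and insulin signalling 1 of 18 members passed, the insulin receptor substrate Irs1, with -0.87 ± 0.20 (SE, adjusted p = 0.0464), which was lost without TG HFD replicate 1 or 2 or any 1 of the TG ND livers.

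Enzymes that oxidise or conjugate foreign compounds and genes of glutathione metabolism were among the falls. Of 35 cytochrome P450 genes 5 fell and none rose, with 28 differences below 0 and a median of -0.26. The count of 5 was 3 without TG ND replicate 1 and 8 without TG HFD replicate 3. Of 35 conjugating enzymes 5 fell and 1 rose, with a median of -0.25, which was -0.08 without TG HFD replicate 2, and of 22 redox genes 4 fell and none rose, with a median of -0.12. Fitted with the TG arrays alone, 3 P450 genes and 3 conjugating enzymes fell, and no redox gene passed. The P450 and glutathione transferase families hold close paralogs, so a probe set may also report a neighbour.

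Cyp2c29, an abundant hepatic P450, was 9.63, 9.26, 9.41 and 9.10 in TG HFD livers, against 11.21, 11.23 and 11.15 in TG ND livers. Its difference was -1.85 ± 0.13 (SE, 0.278-fold, adjusted p = 6.62e-07), many times the spread of either group. Cyp3a11, the main mouse CYP3A and a target of the xenobiotic receptors, was 5.22, 5.74, 5.82 and 5.84 in TG HFD livers, against 7.95, 7.89 and 7.74 in TG ND livers (-2.20 ± 0.23, SE, adjusted p = 3.04e-05). Cyp2c55, another member of the CYP2C family, was 0.39, 0.55, 0.77 and 1.30 in TG HFD livers, against 2.90, 3.14 and 3.16 in TG ND livers (-2.31 ± 0.32, SE, adjusted p = 0.000777). The TG HFD values of Cyp2c55 lie near the array medians. Cyp3a59 and Cyp3a44 differed by -1.59 ± 0.31 and -1.27 ± 0.27 (SE, adjusted p = 0.0158 and 0.0278). Cyp3a59 was lost without TG ND replicate 1 or 3, and Cyp3a44 without TG HFD replicate 4 or TG ND replicate 1 or 2.

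Glutathione transferases of the mu class had the largest falls among the conjugating enzymes that passed. Gstm3 was 4.94, 5.07, 5.41 and 4.37 in TG HFD livers, against 6.54, 6.88 and 6.55 in TG ND livers (-1.71 ± 0.28, SE, adjusted p = 0.00387). Gstm4 differed by -1.49 ± 0.25, Gstm1 by -1.11 ± 0.24 and the alpha-class Gsta4 by -0.78 ± 0.11 (SE). The glucuronosyltransferase Ugt2b35 was 7.38, 6.85, 7.29 and 7.46 in TG HFD livers, against 7.96, 8.07 and 8.04 in TG ND livers (-0.78 ± 0.13, SE, adjusted p = 0.00569). The sulfotransferase Sult1c2 went the other way, with 3.76, 3.90, 5.08 and 4.72 in TG HFD livers, against 2.83, 2.61 and 3.74 in TG ND livers (1.31 ± 0.29, SE, adjusted p = 0.043). Gstm1 was lost without TG HFD replicate 1 or any 1 of the TG ND livers, and Sult1c2 without TG HFD replicate 3 or 4 or TG ND replicate 1 or 2.

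Among redox genes, the quinone reductase Nqo1 differed by -0.99 ± 0.23, the epoxide hydrolase Ephx1 by -0.91 ± 0.21, the glutamate-cysteine ligase subunit Gclc by -0.70 ± 0.16 and the glutathione reductase Gsr by -0.54 ± 0.11 (SE, adjusted p = 0.0435, 0.0443, 0.0462 and 0.0211). Gsr was 6.81, 6.65, 6.80 and 6.84 in TG HFD livers, against 7.24, 7.40 and 7.30 in TG ND livers, with little spread in either group. The count of 4 fell to 0 without TG HFD replicate 2, TG ND replicate 1 or TG ND replicate 2. It was 1 without TG HFD replicate 3 or TG ND replicate 3 and 2 without TG HFD replicate 1. Nfe2l2, which encodes the NRF2 factor itself, differed by 0.01 (adjusted p = 0.997).

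Bile acid synthesis and transport had 3 falls among 24 measured genes and a median of -0.18, which was 0.01 without TG HFD replicate 2. The exporter Abcc3 was 6.81, 5.37, 6.43 and 7.24 in TG HFD livers, against 8.06, 7.95 and 7.60 in TG ND livers (-1.41 ± 0.28, SE, adjusted p = 0.0207). Hsd3b7, a steroid dehydrogenase of bile acid synthesis, differed by -0.91 ± 0.16 and the bile salt export pump Abcb11 by -0.56 ± 0.12 (SE, adjusted p = 0.00815 and 0.0348). All 3 calls were lost without TG ND replicate 1, Abcc3 and Abcb11 also without TG ND replicate 2, and Abcb11 also without TG HFD replicate 1, 2 or 4 or TG ND replicate 3. Cyp7a1, the rate-limiting enzyme of bile acid synthesis, was 9.06, 8.34, 9.13 and 8.29 in TG HFD livers, against 8.68, 8.47 and 8.00 in TG ND livers. The groups overlapped, with a difference of 0.32 (95% interval -0.44 to 1.09, adjusted p = 0.853).

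**Figure D3:**
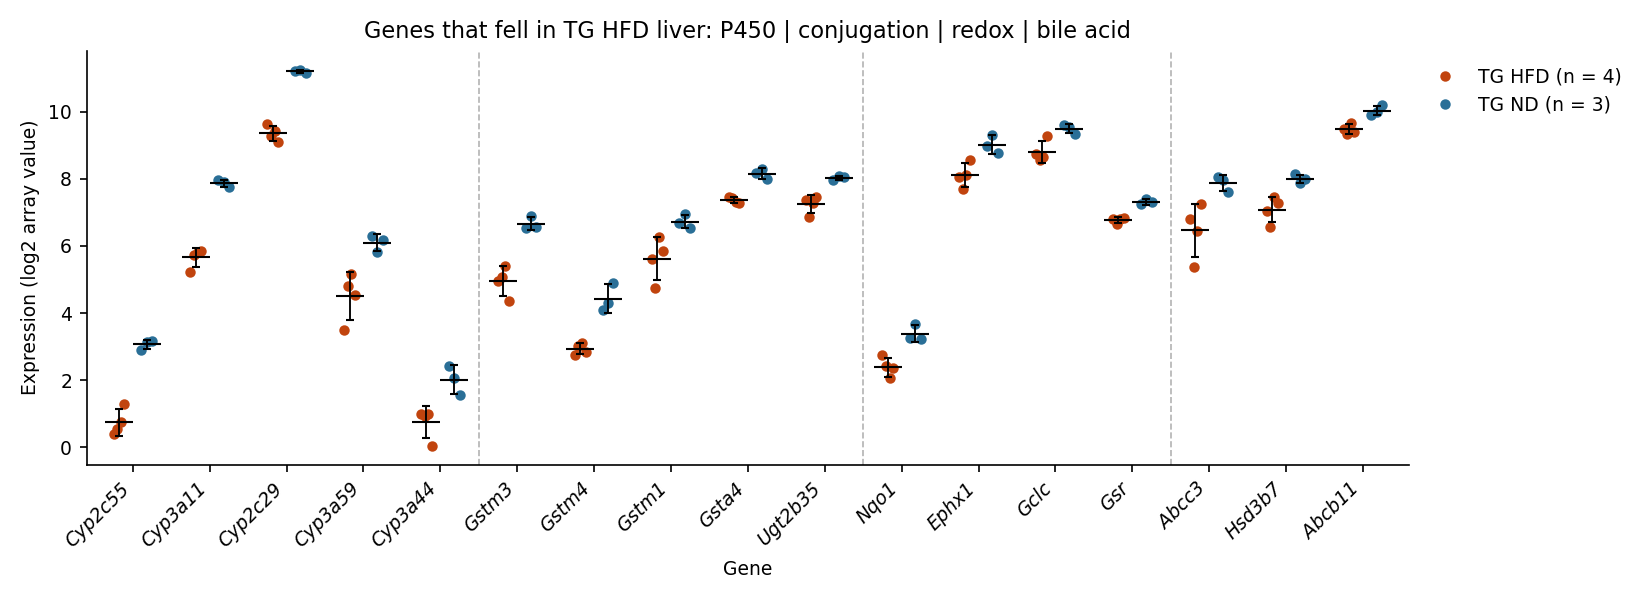
Log2 array values (vertical axis) of the P450, conjugating, redox and bile acid genes that fell (horizontal axis, parted by dashed lines) in 4 TG HFD livers (orange) and 3 TG ND livers (blue), with each point 1 liver and bars for the mean and SD. Cyp2c29 shows no value between 9.63 and 11.15, while the redox genes are separated by less.

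The largest fall of all was that of Elovl3, an elongase of very long-chain fatty acids. It was 7.12, 6.34, 7.08 and 7.01 in TG HFD livers, against 10.86, 10.40 and 10.03 in TG ND livers. The difference was -3.54 ± 0.25 (SE, 0.0862-fold, adjusted p = 6.62e-07). Csad, a decarboxylase of taurine synthesis, was 4.35, 3.85, 4.82 and 6.05 in TG HFD livers, against 8.12, 8.84 and 6.92 in TG ND livers. Both groups were widely spread, and the difference was -3.19 ± 0.52 (SE, adjusted p = 0.00394). Dhrs9, a dehydrogenase of retinoids and steroids, was 1.39, 1.46, 0.90 and 1.54 in TG HFD livers, against 4.04, 4.44 and 3.28 in TG ND livers (-2.60 ± 0.31, SE, adjusted p = 0.000179). Tubb2a, a beta-tubulin, differed by -2.65 ± 0.48 (SE, adjusted p = 0.00991), and its call was lost without TG ND replicate 1 or 2.

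The other large falls were of varied kinds. Asap2, an activator of Arf GTPases, differed by -2.00 ± 0.31 (SE, adjusted p = 0.00239). Grk5, a kinase of G-protein-coupled receptors, was 2.33, 2.03, 2.00 and 2.14 in TG HFD livers, against 4.18, 3.39 and 4.22 in TG ND livers (-1.80 ± 0.19, SE, adjusted p = 3.04e-05). Clpx, the unfoldase of a mitochondrial protease, was 7.17, 6.94, 6.90 and 7.33 in TG HFD livers, against 8.80, 8.49 and 8.74 in TG ND livers (-1.59 ± 0.13, SE, adjusted p = 2.04e-06). In the list of amino acid breakdown and the urea cycle 2 of 30 members fell and the median was 0.02. These were Ddc, which decarboxylates aromatic amino acids (-1.67 ± 0.24, SE, adjusted p = 0.00137), and Cbs, which makes cystathionine from homocysteine. Cbs was 8.04, 8.10, 8.12 and 7.84 in TG HFD livers, against 8.81, 8.92 and 8.86 in TG ND livers (-0.84 ± 0.11, SE, adjusted p = 0.000739).

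Few genes of fat uptake, storage and synthesis passed. Of 19 lipid droplet genes and 17 fatty acid uptake genes none passed, with medians of 0.18 and 0.07. Fatty acid synthesis had 2 of 21 members past the test in opposite directions, Thrsp and Elovl3, and a median of 0.18, which was -0.19 without TG HFD replicate 3. Cd36, a fatty acid translocase that rises in many fatty livers, was 5.90, 7.23, 6.45 and 6.55 in TG HFD livers, against 6.46, 6.32 and 6.40 in TG ND livers. The groups overlapped and differed by 0.14 (95% interval -0.37 to 0.65, adjusted p = 0.906). Cidec, a lipid droplet protein, was 2.94, 1.91, 2.76 and 2.92 in TG HFD livers, against 2.42, 1.95 and 1.42 in TG ND livers, with a difference of 0.70 (95% interval -0.54 to 1.95). Plin2, the main droplet coat protein of hepatocytes, differed by -0.48 (95% interval -1.01 to 0.06) and Cidea by -0.05 (-1.71 to 1.61).

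Fasn, fatty acid synthase, was 8.55, 7.65, 10.04 and 8.23 in TG HFD livers, against 8.44, 8.40 and 7.74 in TG ND livers, and TG HFD replicate 3 was the highest. Its difference of 0.43 had a 95% interval from -0.57 to 1.42, and that of the desaturase Scd1 was -0.22 (-0.81 to 0.36). Srebf1, the factor that drives both, differed by 0.31 (-0.28 to 0.89). Dgat2 and Lpin2, which make triglyceride and its precursor diacylglycerol, rose by 0.48 ± 0.10 and 0.81 ± 0.17 (SE, adjusted p = 0.0348 and 0.0279). Chka, a choline kinase of phospholipid synthesis, differed by -1.37 ± 0.27 (SE, adjusted p = 0.0176). These 3 were the calls among 16 genes of triglyceride and phospholipid synthesis, whose median was 0.08. Each was lost without TG HFD replicate 1 or TG ND replicate 1 or 2, Lpin2 also without TG HFD replicate 2 or 4, and Dgat2 also without TG HFD replicate 3 or 4 or TG ND replicate 3.

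Of 32 genes of fatty acid oxidation 1 rose, Cpt1a, which admits fatty acids to mitochondria. It was 9.26, 8.96, 9.31 and 9.54 in TG HFD livers, against 8.43, 8.67 and 8.80 in TG ND livers (0.63 ± 0.13, SE, adjusted p = 0.0308). Its call was lost without TG HFD replicate 1, 3 or 4 or TG ND replicate 1 or 2, and the list had a median of -0.01. Ppara, the receptor that drives these genes, was 7.07, 6.57, 7.11 and 7.25 in TG HFD livers, against 6.43, 6.33 and 6.10 in TG ND livers. Its groups did not overlap, and it missed the threshold with 0.72 ± 0.18 (SE, adjusted p = 0.0784). Pdk4, which shuts off pyruvate oxidation, differed by -1.61 (95% interval -2.65 to -0.58, adjusted p = 0.171) and Pparg, the adipogenic receptor, by -0.95 (-1.64 to -0.26, adjusted p = 0.255). The intervals are for single genes and are not adjusted for the number of genes tested. Cyp4a14, a target of Ppara, ranged from 2.08 to 6.43 in TG HFD livers and from 1.86 to 6.68 in TG ND livers. Fgf21, a hepatic hormone under Ppara, differed by 0.30 (-0.57 to 1.17).

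None of the 19 genes of cholesterol synthesis passed, although 18 differences were below 0 and the median was -0.49. The mean over the list was 6.45, 6.17, 7.65 and 6.61 in TG HFD livers, against 7.34, 7.40 and 6.92 in TG ND livers, and TG HFD replicate 3 was the highest of all 7. Without it the median was -0.87 and 1 gene fell, and without each other TG array in turn the median lay between -0.63 and -0.36 with no gene past the test. Sqle, squalene epoxidase, was 5.18, 4.79, 7.34 and 5.31 in TG HFD livers, against 6.72, 7.01 and 6.23 in TG ND livers, with a 95% interval of the difference from -2.17 to 0.18 (adjusted p = 0.601). Insig2, which retains the SREBP complex in the endoplasmic reticulum and stands outside the lists, was 6.85, 6.92, 7.15 and 6.66 in TG HFD livers, against 8.07, 7.76 and 8.16 in TG ND livers. It fell, with a difference of -1.10 ± 0.17 (SE, adjusted p = 0.00311).

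**Figure D4:**
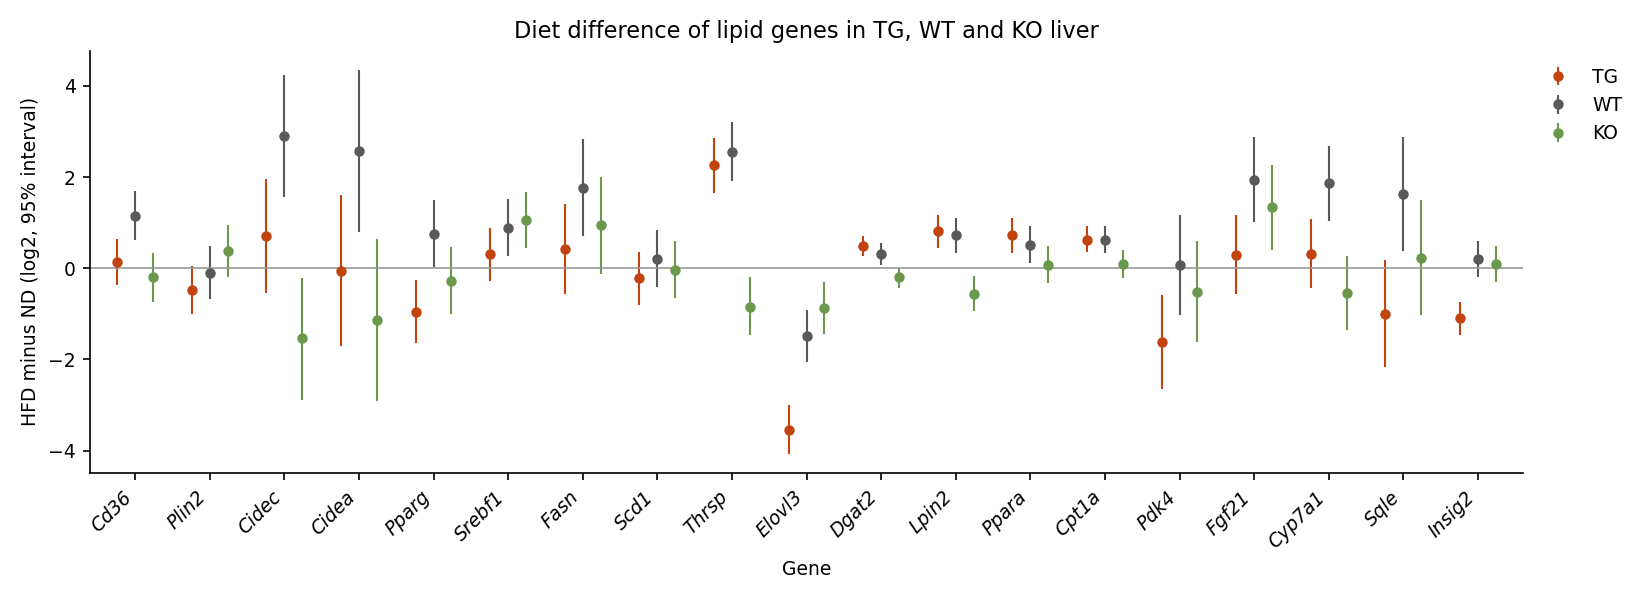
Diet difference (HFD minus ND, log2, vertical axis) of 19 lipid genes (horizontal axis) in TG (orange), WT (grey) and KO (green) livers, with 95% intervals that are not adjusted for the number of genes. In TG, Elovl3 (-3.54) and Thrsp (2.26) lie farthest from 0, and the intervals of Cd36, Plin2, Cidec, Cidea, Srebf1, Fasn and Scd1 include 0.

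The list of pathway and target genes of BMP and TGF-beta signalling, which Kcp modulates, had 1 rise and no fall among 41 measured, with a median of -0.02. The gene that rose was Hamp2, a paralog of the iron hormone hepcidin, which BMP signalling controls. Hamp2 was 5.96, 4.48, 6.67 and 4.98 in TG HFD livers, against 3.62, 3.02 and 3.80 in TG ND livers (2.04 ± 0.47, SE, adjusted p = 0.0462). Its call was lost without TG HFD replicate 1 or 3 or any 1 of the TG ND livers, and as a close paralog of Hamp its probe set may report both. Hamp itself differed by -0.45 (adjusted p = 0.572), and the BMP targets Id1 and Smad7 by 0.48 and -0.27 (adjusted p = 0.343 and 0.694). Of the lists of extracellular matrix, cytokines, acute-phase proteins, interferon response, complement, unfolded protein response and cell cycle none had a member that passed. Col1a1, a fibrillar collagen, differed by -0.16, the cytokine Tnf by 0.03, and the metallothioneins Mt1 and Mt2 by 0.36 and 0.38 (adjusted p = 0.942, 0.982, 0.874 and 0.897).

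None of the 14 lists of cell markers, 1 of which is the hepatocyte list, had a member that passed. The mean of the 27 macrophage markers lay between 4.50 and 5.03 in TG HFD livers, against 4.59 to 5.00 in TG ND livers. The mean of the 16 T and NK cell markers lay between 1.01 and 1.33 in TG HFD livers, against 0.99 to 1.40 in TG ND livers. None of the T and NK cell, neutrophil, erythroid, kidney or mesothelial markers had a mean log2 value of at least 2. At such low signal a lack of calls says little about these cells. The mean of the 12 neutrophil markers was 0.76, 1.93, 0.80 and 0.70 in TG HFD livers, against 1.04, 0.76 and 0.96 in TG ND livers, so that TG HFD replicate 2 stood apart. Its mean of acute-phase genes was also the highest of the TG livers (9.59, against 8.16 to 8.95 in the others). Its means of P450 (5.36, against 5.65 to 6.26), conjugating (5.76, against 6.03 to 6.30) and bile acid genes (7.15, against 7.40 to 7.65) were the lowest. What sets it apart was not tested. Without that liver 75 genes rose and 78 fell, and 5 P450 genes and 5 conjugating enzymes were still among the falls.

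The diet comparisons in WT and KO livers share no array with the one in TG livers. In WT livers 293 genes (1.32%) changed, 0.753% of those tested higher and 0.568% lower. In KO livers 178 genes (0.803%) changed, 0.46% higher and 0.343% lower. Of the 201 TG calls, 58 were called the same way in WT, which is 28.9% of the TG calls and 19.8% of the WT calls, and none the opposite way. In KO livers 6 were called the same way, 2.99% of the TG calls and 3.37% of the KO calls, and 11 the opposite way. The differences of the 201 genes had the sign of the TG difference for 180 genes in WT and for 73 in KO. Across these 201 genes, which are not independent replicates, Pearson's r with the TG difference was 0.83 for WT and -0.0649 for KO, and over all 22180 genes it was 0.258 and -0.0292. Ces2a, a carboxylesterase, Cyp2c29, Cyp2c55 and Cyp3a11 fell in all 3 genotypes.

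**Figure D5:**
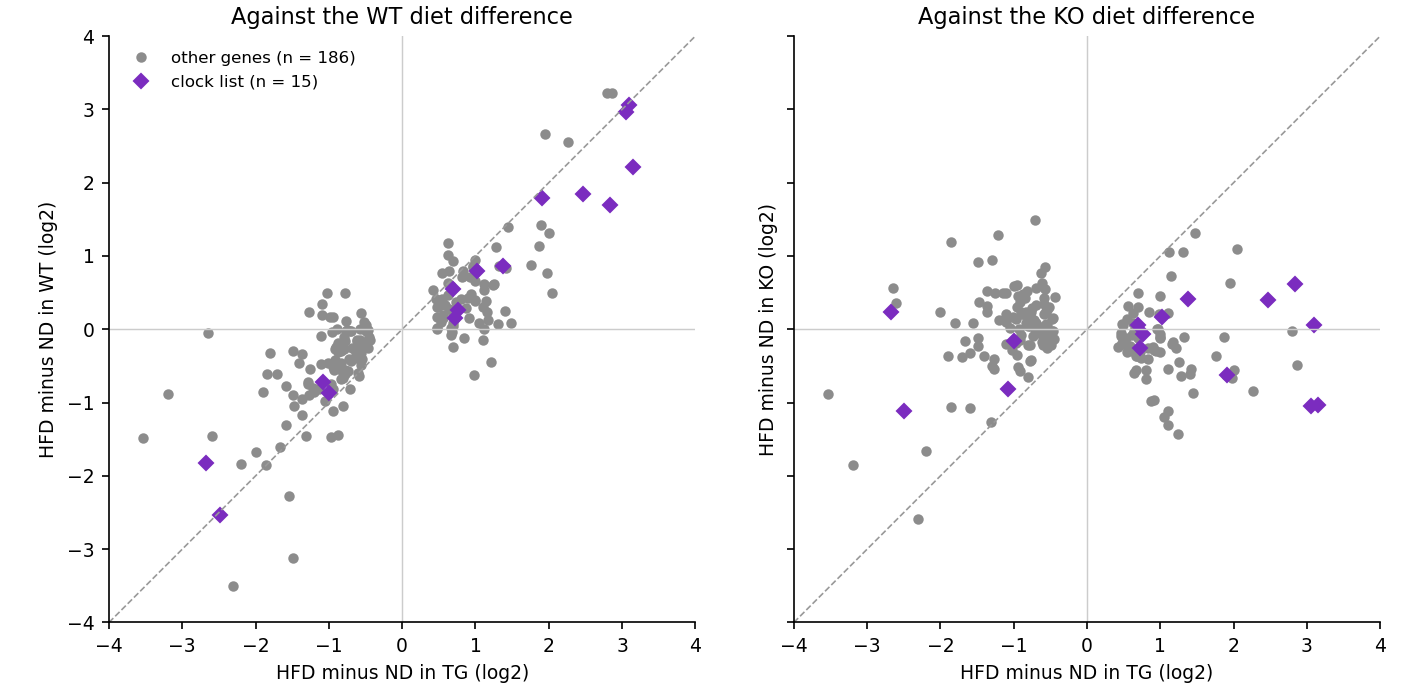
Each point is 1 of the 201 genes that changed in TG, placed by its HFD minus ND difference in TG (horizontal axis, log2) and in WT (left) or KO (right) livers (vertical axis, log2), with 15 clock genes as purple diamonds and equal differences along the dashed line. Against WT the points follow the line (r = 0.83), and against KO they spread around 0 (r = -0.0649).

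The difference between diet effects was tested as an interaction. Against KO, 238 genes (1.07%) had a different diet effect in TG, 0.469% higher and 0.604% lower, and 104 of the 201 TG calls were among them. Usp2 differed by 4.10 and Ciart by 4.18 (adjusted p = 3.34e-05 and 0.000219). In KO livers Ciart was 4.41 ± 0.39 on HFD and 5.44 ± 0.41 on ND (SD, n = 3 each), so that its KO ND level was close to that of TG HFD livers, 5.16 ± 0.67 (SD, n = 4). Coq10b (2.52) and Nampt (2.32) also had larger differences in TG, and Cldn1, a tight-junction protein, Agtr1a, the angiotensin receptor, Rtn4rl1, a Nogo receptor family member, and Mug2, a macroglobulin-type protease inhibitor, had lower ones (-2.20, -1.42, -2.24 and -2.41). All of these ran the other way in KO. There Nampt (-0.87), Cldn1 (1.49), Agtr1a (0.85) and Rtn4rl1 (0.95) passed, and Coq10b (-0.63) and Mug2 (0.92) did not. The TG fall of Cldn1 was lost without TG HFD replicate 1 or any 1 of the TG ND livers, and that of Agtr1a without TG ND replicate 1 or 3. Pck1, which did not pass in TG, had a diet difference 1.43 higher than in KO (adjusted p = 0.00481). In KO livers it differed by -1.08 (adjusted p = 0.0091). The count of 238 was between 112 and 149 without TG ND replicate 1 or 2, KO ND replicate 2 or 3, or any 1 of the KO HFD livers, and 296 without TG HFD replicate 3.

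Against WT, 49 genes (0.221%) had a different diet effect, 0.0631% higher and 0.158% lower, and 7 of them were TG calls. Elovl3 differed by -2.06 (adjusted p = 0.0257), with a fall of -3.54 in TG and -1.48 in WT. Cyp2c29 differed by -1.24 (adjusted p = 0.00947), with -1.85 in TG and -0.61 in WT. Grk5 (-1.47), Insig2 (-1.30), Rfxank, a subunit of the factor that drives MHC class II genes (-1.12), and Spg20, the endosomal protein spartin (-0.79), passed with a fall in TG and no call in WT (adjusted p = 0.0275, 0.0434, 0.0166 and 0.0486). The fall of Spg20 in TG was lost without TG ND replicate 2 or 3. Grk5 was also 1.42 higher in TG ND than in WT ND livers (adjusted p = 0.000561). Mug2 fell in both, with -1.49 in TG and -3.12 in WT, so that its interaction was 1.63 (adjusted p = 0.0257). The count of 49 was between 22 and 32 without any 1 of the TG ND livers, any 1 of the WT ND livers or WT HFD replicate 1, and 67 without TG HFD replicate 3.

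The 8 genes with the smallest p in this interaction did not pass the TG diet comparison, and in 3 of them the WT ND livers stood apart. Ctse, the protease cathepsin E, was 6.94 ± 0.62 in TG HFD (SD, n = 4) and 6.94 ± 0.21 in TG ND (SD, n = 3), against 8.34 ± 0.57 in WT HFD and 1.83 ± 0.34 in WT ND (SD, n = 3 each). Mme, the membrane protease neprilysin, was 6.79 ± 0.80 in TG HFD (SD, n = 4) and 6.36 ± 0.37 in TG ND (SD, n = 3), against 7.39 ± 0.36 in WT HFD and 2.73 ± 0.63 in WT ND (SD, n = 3 each). Asic5, an ion channel, was 4.27 ± 0.26 in TG HFD (SD, n = 4) and 3.95 ± 0.34 in TG ND (SD, n = 3), against 4.39 ± 0.22 in WT HFD and 7.70 ± 0.21 in WT ND (SD, n = 3 each). In each of these 3 genes the WT ND mean lay outside the range of the other 3 means. The interactions of Ctse, Mme and Asic5 were -6.51, -4.22 and 3.64 (adjusted p = 4.93e-07, 0.00128 and 4.93e-07). The others were Abca3 (-1.70), Rian (2.07), Nt5e (-2.38), Tmem260 (-1.02) and Ide (-0.89).

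Some lipid genes passed in WT and not in TG, and the difference between genotypes did not pass for them. They are set out here for that pattern, which favours a negative interaction. Their intervals are not adjusted for this choice or for the number of genes tested. Cidec had a diet difference of 0.70 in TG and 2.90 in WT (interaction -2.19, 95% interval -4.02 to -0.37, adjusted p = 0.534). Fgf21 had 0.30 in TG and 1.94 in WT (interaction -1.64, -2.91 to -0.36, adjusted p = 0.487). Cyp7a1 had 0.32 in TG and 1.86 in WT (interaction -1.54, -2.66 to -0.42, adjusted p = 0.443), and Cd36 0.14 in TG and 1.15 in WT (interaction -1.01, -1.75 to -0.26, adjusted p = 0.45). A p above the threshold does not show that the diet acted alike in both genotypes.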

How the data were processed

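RNA from 19 whole mouse livers was measured on 1-colour Affymetrix arrays, and 7 of these, TG HFD and TG ND, are the members. The deposited table holds the authors' normalized values, 1 column an array, read here as log2. Tools listed by the submitters' processing notes are affy, limma and RMA, without versions. That listing and the value range are the basis for the log2 scale. Values below 0 made up 1.81%. Another base would scale every difference by 1 factor.

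Of 41345 probe sets, 23521 have 1 symbol in the platform annotation, 1814 several and 16010 none here, and 23328 of the 23521 matched a RefSeq gene table of GRCm38.p6 with 0 symbols changed. Where a symbol had several probe sets (1082 symbols), the brightest on average was kept, which left 22180 genes, 56.5% of them with a mean below 2. All 19 arrays were fitted in 1 model of 6 group means with limma 3.58.1 in R 4.3.3 (lmFit and eBayes, 13 residual and 4.76 prior degrees of freedom), and interactions were contrasts of the same fit. The number of livers limits the precision. The procedure was tested on simulated data.

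Genes named are the 15 largest rises and 15 largest falls among calls whose arrays do not overlap, the called members of each list, the 8 smallest p of each interaction and a list of fixed genes, some of which are not reported here. Insig2, Rfxank, Spg20, G6pc, Nfe2l2, Ces2a, the clock genes that did not pass and those singled out in the closing observations were named after their values were seen. Predicted genes, Rik clones, small RNAs and pseudogenes (12 of the 201 calls) are not named. The members, the 50 gene lists and the clock phases were chosen with earlier results of these data known.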

Additional observations from a re-analysis of the deposited data

Results flagged for a closer look

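Among the 100 named genes, 1 of the 4 TG HFD livers stood far from the other 3 in 10. By its critical value this rule marks about 1 in 20 groups of independent values by chance, and these genes are neither independent nor chosen at random. TG HFD replicate 1 was high for Usp2 (7.28, against 6.46 to 6.52 in the others) and low for Cyp3a11 (5.22, against 5.74 to 5.84) and Cldn1 (7.68, against 8.08 to 8.16). TG HFD replicate 2 was low for Elovl3 (6.34, against 7.01 to 7.12) and Asap2 (1.15, against 2.56 to 2.72). TG HFD replicate 3 was high for Hlf (5.52, against 5.18 to 5.23) and Rfxank (5.53, against 5.13 to 5.17) and low for Fmo2 (4.12, against 4.38 to 4.42). TG HFD replicate 4 was low for Cyp3a44 (0.05, against 0.95 to 1.00) and high for Gys2 (9.67, against 9.28 to 9.34).

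The diet effect differed between TG and WT, by the interaction of the limma fit, in 15 of the 100 named genes, against 0.221% of all genes tested. Some genes were named for their small p in this interaction and many for passing in TG. That choice raises the count. The values, TG diet effect minus WT diet effect on the log2 scale, were Elovl3 (-2.06), Cyp2c29 (-1.24), Grk5 (-1.47), Ctse (-6.51), Asic5 (3.64), Mme (-4.22), Abca3 (-1.70), Rian (2.07), Nt5e (-2.38), Tmem260 (-1.02), Ide (-0.89), Mug2 (1.63), Insig2 (-1.30), Rfxank (-1.12) and Spg20 (-0.79).

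The diet effect differed between TG and KO in 41 of the 100 named genes, against 1.07% of all genes tested, a count raised by the same choice of genes. Higher in TG, as TG diet effect minus KO diet effect, were Ciart (4.18), Wee1 (3.03), Usp2 (4.10), Mfsd2a (3.35), Dbp (2.22), Per3 (2.07), Thrsp (3.09), Nrg4 (2.66), Per1 (2.55), Coq10b (2.52), Lpin2 (1.37), Dgat2 (0.69), Slc37a4 (1.24), Gys2 (1.12), Foxo1 (1.22), Hlf (0.98), Fmo2 (1.89), Ppargc1b (1.35), Asic5 (1.22), Nampt (2.32) and Pck1 (1.43). Lower were Elovl3 (-2.65), Tubb2a (-3.22), Dhrs9 (-2.96), Asap2 (-2.24), Grk5 (-1.90), Ddc (-1.51), Clpx (-1.26), Chka (-1.68), Hsd3b7 (-1.29), Abcb11 (-0.81), Nqo1 (-1.59), Gclc (-1.02), Irs1 (-1.32), Cbs (-1.27), Clock (-0.84), Cldn1 (-2.20), Agtr1a (-1.42), Rtn4rl1 (-2.24), Mug2 (-2.41) and Insig2 (-1.20). The clock scores of KO ND livers, 1.74 ± 0.21 (SD, n = 3), lay near those of the livers on a high-fat diet, and their part in these differences was not tested.

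Outside the genes with a single symbol, 23 of 17824 probe sets with no symbol or several passed when all probe sets were tested together, 10 of them higher and 13 lower in TG HFD livers.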

How the results depend on the processing

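The count of 88 genes that rose was between 29 and 78 and that of 113 genes that fell between 44 and 109 when 1 TG array was left out. The interaction against WT (49) was between 22 and 67 and that against KO (238) between 112 and 296 when 1 array was left out. With the compared arrays only, 23 genes rose and 32 fell. In that fit 7 clock genes rose and 3 fell, while no gene of the redox, bile acid or triglyceride and phospholipid lists passed. With all 41345 probe sets tested, 57 probe sets rose and 74 fell, and the KO interaction held 126 probe sets. These are counts of probe sets and not of genes. They include the 10 higher and 13 lower ones with no symbol or several. With genes of a mean log2 value of at least 2, 182 fell and the KO interaction was 371, and 128 rose. Without TG HFD replicate 2 and TG ND replicate 3 together, chosen after seeing the data, 65 rose and 67 fell, with interactions of 30 and 135. Fitted beside the clock score, 0 rose and 0 fell in limma, 966 genes had an unadjusted p under 0.05, and the interactions were 27 and 0. The named calls that changed sign in that fit were Npas2 (2.09), Arntl (0.08), Cpt1a (-0.10), Nr1d2 (-0.30), Nfil3 (0.84), Fmo2 (-0.06) and Ppargc1b (-0.47). Each had an adjusted p of 0.999 in limma. Diet and score did not overlap in TG livers, so this fit cannot resolve these signs. The clock genes among them are part of the score. The cause of the other changes was not tested. Quantile normalization again gave 114 and 104 and array medians subtracted 81 and 130, so the split by direction depends on scaling. Trend and robust priors, array weights and the mean of probe sets moved no count by over 1.5 times. No paired analysis was possible because the labels give each animal its own number. Signal over background limits dim genes such as Cyp2c55, Cyp3a44 and Npas2.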

Other observations

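Of the 201 genes that changed in TG livers, 152 are in no pathway list, and the following were singled out after their values were seen. Among enzymes of NAD and nucleosides, Nmrk1, a nicotinamide riboside kinase, was 6.19, 5.62, 5.76 and 6.13 in TG HFD livers, against 4.23, 5.03 and 4.26 in TG ND livers (1.42 ± 0.24, SE, adjusted p = 0.00453). Upp2, a uridine phosphorylase of liver, was 9.19, 8.68, 8.74 and 8.73 in TG HFD livers, against 7.06, 7.32 and 7.93 in TG ND livers (1.40 ± 0.21, SE, adjusted p = 0.00155). Both groups were apart for each gene. The WT diet differences were 0.84 for Nmrk1 and 0.25 for Upp2 (adjusted p = 0.139 and 0.764), and the interactions did not pass (adjusted p = 0.736 and 0.193). Gldc and Amt, subunits of the glycine cleavage system of mitochondria, differed by -0.74 ± 0.11 and -0.70 ± 0.13 (SE, adjusted p = 0.00155 and 0.0123). Gldc was 7.52, 7.45, 7.56 and 7.18 in TG HFD livers, against 8.18, 8.17 and 8.17 in TG ND livers.

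Coq8a, an atypical kinase needed for coenzyme Q synthesis, was 6.01, 5.08, 6.17 and 6.03 in TG HFD livers, against 7.29, 7.06 and 7.21 in TG ND livers (-1.36 ± 0.19, SE, adjusted p = 0.00114). Mcu, the pore of the mitochondrial calcium uniporter, was 5.04, 4.92, 5.22 and 5.03 in TG HFD livers, against 5.75, 5.83 and 5.76 in TG ND livers (-0.73 ± 0.12, SE, adjusted p = 0.00311). Ethe1, a mitochondrial enzyme of sulfide breakdown, differed by -1.20 ± 0.20 (SE, adjusted p = 0.00508). Crot, the peroxisomal carnitine octanoyltransferase, differed by -0.87 ± 0.14 and Hacl1, the lyase of peroxisomal alpha-oxidation, by -0.80 ± 0.15 (SE, adjusted p = 0.00431 and 0.0129). The oxidases Aox1 and Maoa differed by -1.29 ± 0.25 and -1.03 ± 0.24 (SE, adjusted p = 0.014 and 0.0462). The calls of Nmrk1 and Ethe1 were lost without TG ND replicate 1, that of Amt without TG ND replicate 3, and those of Hacl1 and Aox1 without TG ND replicate 1 or 2. Maoa passed only without TG ND replicate 3, among the 7 arrays left out in turn. Serpina6, which encodes corticosteroid-binding globulin, rose in TG (0.70 ± 0.12, SE, adjusted p = 0.00697) and in WT (0.93, adjusted p = 0.000717), and its TG call was lost without TG ND replicate 1.

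Of 22 male-biased liver genes only Elovl3 passed in TG, and the median was -0.13. Without TG HFD replicate 4 the count was 3 and the median -0.23, and without each other TG array the median lay between -0.24 (TG ND replicate 1) and -0.08 (TG ND replicate 2). Of 25 female-biased genes, Hamp2 and Fmo2 rose and Cyp3a44 fell, and none passed without TG ND replicate 1. Fmo2, a flavin monooxygenase, differed by 0.92 ± 0.20 (SE, adjusted p = 0.0388) and was lost without TG HFD replicate 1, 2 or 4 or TG ND replicate 1 or 3.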
